A study of Mus musculus with 40 samples.

Results

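Zinc finger protein genes were followed in mouse oocytes labelled as conditional knockouts of the histone methyltransferase G9A, or of both G9A and its partner GLP. The members were chosen by name and by level. A member has a symbol of Zfp followed by digits alone, a transcript locus that overlaps the annotated gene on the same strand, and a mean of at least 2 over the 6 control RNA libraries on the scale of log2 RPM, where RPM is the reads of a locus per 1000000 reads of its library. Where a symbol had several loci, the locus with the highest control mean was kept. The rule left out a pair of symbols by name. It kept 166 of the 284 symbols of this form, in a table of 38540 loci and 14062 named symbols, and 118 symbols fell under the threshold. Because the control level chose the members, their levels are given as a description with no test. The mutant comparisons share these controls, so the counts were also made with members chosen on the controls of the other series.

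RNA was measured in 11 libraries, each from a pool of 100 to 200 germinal-vesicle oocytes of mice aged 22 to 25 days, per the labels. Titles with the prefix GKAO cover 3 controls and 3 libraries of the genotype G9a cKO. Titles with the prefix GKAQ cover 3 controls and 2 libraries of the genotype G9a-Glp cDKO, written cDKO below. The names of the genotypes are those of the labels, and a conditional deletion is taken from the abbreviation. The Cre driver, the floxed alleles and the genotype of the controls beyond the word control are not given in the sources used here. Comparisons were made within a prefix. Dimethylation of lysine 9 of histone H3 (H3K9me2) was measured by immunoprecipitation of native chromatin in 2 libraries per genotype, so both mutants share the same 2 controls there. The labels do not say whether libraries of a group came from separate mice, so the spread between them may be technical. In the RNA fit this spread was pooled over loci of similar level. An RNA p-value therefore hardly reflects how far that gene itself varied between libraries. In such pools, fewer cells with a transcript and less of it per cell cannot be told apart.

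C2H2 zinc finger proteins bind DNA, and some bind RNA, through small domains folded around a zinc ion. The largest group in mammals carries a KRAB domain, which recruits TRIM28 and, through it, the H3K9 methyltransferase SETDB1, and many of its members silence retroelements in the germ line and early embryo. G9A (gene Ehmt2) and GLP (gene Ehmt1) act as a complex that places H3K9me2, mainly in euchromatin, and some zinc finger proteins bind to that complex.

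The RNA libraries held 1458868 to 2399680 reads. Ehmt1 had 17.7 and 21.3 RPM in cDKO and 68.3 to 90.5 RPM in the GKAQ controls, and fell (log2 fold change −2.06, SE 0.20, limma adjusted p = 1.09e-21). Ehmt2 was near the detection limit, with 5, 11 and 2 reads in G9a cKO against 9 to 13 in its controls, and 5 reads in each cDKO library against 8 to 30. The library labelled G9a cKO replicate 2 lay within the control range for Ehmt2, which was not called in either mutant (adjusted p = 0.0971 and 0.121), so counts are also given without that library. Of 13 oocyte markers, 12 were matched and each was detected in every group, with a summed level of 14598 to 17722 RPM. The 15 granulosa cell markers summed to 384 to 431 RPM in GKAO controls, 319 to 357 in G9a cKO, 323 to 347 in GKAQ controls and 356 to 413 in cDKO. Of the 15, 8 had a mean of at least 1 RPM in GKAO controls, 10 in G9a cKO, 9 in GKAQ controls and 10 in cDKO. Foxl2 was at 0 in GKAO controls, Cyp11a1 in G9a cKO and Amhr2 in cDKO. The part of granulosa RNA in the results was not tested. Theca and stroma markers summed to at most 0.685 RPM and blood markers to at most 0.546 RPM in any library, with Hba-a1 and Hbb-b1 at 0 in all groups.

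The 166 genes together took 0.836% to 0.906% of the reads of each library, or 8357 to 9064 RPM. The lowest sum was in a GKAO control and the highest in a cDKO library. The control mean ranged from 2.09 to 9.24 log2 RPM with a median of 4.51, and 128 members had at least 10 reads in every library. Values are not divided by transcript length, so the order below is one of reads and not of transcripts. Zfp592, which belongs with Zfp532 to a chromatin complex around ZMYND8, took the most reads, with 548 to 658 RPM over the 11 libraries. Next came Zfp655 (391 to 524 RPM), then Zfp828, a gene also known as Champ1 whose product acts in the attachment of chromosomes to the spindle (287 to 417 RPM). Zfp68, Zfp108 and Zfp296 followed, with control means of 8.27, 8.04 and 8.03 log2 RPM. None of the first 5 of these was called in either mutant. Their log2 fold changes lay between −0.29 (Zfp68 in G9a cKO) and 0.22 (Zfp828 in G9a cKO).

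At the other end, Zfp12, Zfp933, Zfp938 and Zfp346 lay just inside the threshold, with control means of 2.09, 2.09, 2.11 and 2.12 log2 RPM. Zfp444 (1.97), Zfp326 (1.96), Zfp870 (1.87) and Zfp507 (1.87) lay just outside it. Members near the threshold rest on 2 to 18 reads per library. Between the libraries of a group, the Pearson correlation of log2 RPM across the 166 members was 0.935 to 0.966. Between libraries of different groups it was 0.893 to 0.956, so the ranges overlapped.

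By position, 40 members lay on chromosome 7 and 20 on chromosome 17. Runs of at least 5 neighbouring Zfp symbols with gaps of at most 500 kb formed 12 clusters on chromosomes 6, 7, 8, 9, 11, 13 and 17. These clusters held 58 members, and 108 members lay outside them. The largest number of members, 9, came from a cluster of chromosome 7 (chr7:29768308-30169799, which holds Zfp568 and Zfp82) and from a cluster of chromosome 17 (chr17:21008900-23586240, which holds Zfp53). Cluster genes are often recent copies of one another. How the authors counted reads that match several copies is not given in the sources used here, so the values of such genes are uncertain. Whether counting used the strand is not given either, and 53 members overlap a locus on the other strand. By symbol, 160 members matched RefSeq (GRCm38.p6), and all 160 overlap the position of their RefSeq gene and are protein coding.

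Promoter sequences of 128 members were read from RefSeq (GRCm38.p6), from 250 bases before to 50 bases after the start, and 112 of these starts lay within 1000 bases of the start of the locus in the RNA table. The median number of CG dinucleotides in these 300 bases was 15.5 for members, 7 for all 32851 promoters of the table and 21 for the promoters of 5676 other genes at or above the same control level. CCGGAA, the core of sites for ETS factors, was searched on both strands and was present in 40.6% of member promoters, 27.6% of those of the other expressed genes and 14.9% of all promoters. The palindrome bound by NRF1 was present in 4.69%, 2.22% and 0.971% in the same order. TATAAA was present in 6.25%, 6.98% and 13.6%, and CCAAT in 46.9%, 39.5% and 37.4%, both searched on both strands. Among the members whose RNA changed in a mutant, 8 with a RefSeq start within 1000 bases were looked at singly, and 6 are printed to show how far these genes differ in CG content: Zfp560, Zfp770 and Zfp735 were higher in a mutant and Zfp710, Zfp939 and Zfp839 lower. Capitals mark each CG.
Zfp560, chr9:20385109-20385408, minus strand: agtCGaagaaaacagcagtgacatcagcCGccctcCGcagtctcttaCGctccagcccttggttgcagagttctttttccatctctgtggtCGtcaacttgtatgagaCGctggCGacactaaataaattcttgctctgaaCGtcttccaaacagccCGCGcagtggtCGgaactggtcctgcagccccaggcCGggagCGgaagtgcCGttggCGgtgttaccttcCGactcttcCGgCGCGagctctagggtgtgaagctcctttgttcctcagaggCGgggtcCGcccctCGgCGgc
Zfp770, chr2:114201383-114201682, minus strand: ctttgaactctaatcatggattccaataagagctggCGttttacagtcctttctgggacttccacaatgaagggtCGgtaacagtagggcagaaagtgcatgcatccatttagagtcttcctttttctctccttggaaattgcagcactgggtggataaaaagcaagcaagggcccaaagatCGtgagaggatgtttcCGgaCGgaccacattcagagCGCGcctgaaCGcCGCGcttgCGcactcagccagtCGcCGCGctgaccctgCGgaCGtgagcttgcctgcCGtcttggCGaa
Zfp735, chr11:73688528-73688827, plus strand: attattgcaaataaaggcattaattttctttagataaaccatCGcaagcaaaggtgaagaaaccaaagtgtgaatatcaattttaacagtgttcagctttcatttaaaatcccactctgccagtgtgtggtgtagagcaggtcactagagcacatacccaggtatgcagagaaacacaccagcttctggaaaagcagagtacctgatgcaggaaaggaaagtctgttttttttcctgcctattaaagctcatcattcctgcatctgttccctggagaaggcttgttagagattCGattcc
Zfp710, chr7:80024564-80024863, plus strand: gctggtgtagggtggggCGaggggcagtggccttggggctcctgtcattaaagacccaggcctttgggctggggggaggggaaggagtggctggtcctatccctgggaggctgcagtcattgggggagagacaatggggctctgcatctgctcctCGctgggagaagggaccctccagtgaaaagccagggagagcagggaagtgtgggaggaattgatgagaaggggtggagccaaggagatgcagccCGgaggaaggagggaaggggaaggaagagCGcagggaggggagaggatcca
Zfp939, chr7:39449261-39449560, plus strand: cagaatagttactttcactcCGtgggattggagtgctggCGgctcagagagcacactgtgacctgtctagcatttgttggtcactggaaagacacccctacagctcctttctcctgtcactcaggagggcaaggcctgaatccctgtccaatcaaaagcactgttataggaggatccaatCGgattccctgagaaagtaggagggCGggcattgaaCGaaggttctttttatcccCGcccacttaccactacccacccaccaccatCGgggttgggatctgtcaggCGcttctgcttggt
Zfp839, chr12:110850029-110850328, plus strand: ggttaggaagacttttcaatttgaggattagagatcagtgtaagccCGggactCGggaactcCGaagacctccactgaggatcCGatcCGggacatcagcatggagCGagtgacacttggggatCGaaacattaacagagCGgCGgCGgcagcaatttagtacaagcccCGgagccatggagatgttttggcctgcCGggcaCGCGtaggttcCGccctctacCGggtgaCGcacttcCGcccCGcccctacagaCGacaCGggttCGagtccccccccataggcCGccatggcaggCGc
The windows of the higher genes Zfp560, Zfp770 and Zfp735 hold 23, 18 and 2 CG. Those of the lower genes Zfp710, Zfp939 and Zfp839 hold 4, 8 and 24 CG. The other 2 promoters, of the higher genes Zfp296 and Zfp82, hold 19 and 18 CG. The lowest of the 8 values belonged to a higher gene and the highest to a lower gene, so CG content did not separate the directions. That lowest value is of Zfp735, whose RNA locus starts 364 bases before its RefSeq start, so its whole window lies inside the locus. Without Zfp735, lower genes had both the lowest and the highest value, 4 and 24 CG. CCGGAA was present on either strand in Zfp560 and Zfp770 and in none of the other 6.

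The first comparison asked how these transcripts differ in oocytes of the genotype G9a cKO. A member is described as called when its limma p, adjusted by Benjamini-Hochberg over all 38540 loci, was under 0.05. Zfp710, Zfp438 and Zfp939 fell in G9a cKO and Zfp707, Zfp770 and Zfp735 rose, with log2 fold changes from −1.78 to 1.32, while most of the family had values near 0. Thus 6 of 166 members were called, 3 higher and 3 lower, which is 3.61%. Over all loci 1.79% were called (1.05% higher and 0.737% lower), and over the 8231 named loci at or above the same control level 4.48% (2.05% and 2.43%). The median log2 fold change of the members was 0.09, beside −0.00 for those 8231 loci, and 7 members (4.22%) changed by at least 1 in value in either direction, beside 3.46% of those loci. An unadjusted p under 0.05 was found for 30 members (18.1%) and for 20.02% of those loci. The libraries of the 2 groups did not overlap for 42 members, or 29 higher and 13 lower, while 23.7% of the 8231 did not overlap. With members chosen on the GKAQ controls alone, 6 of 173 were called. With the library labelled G9a cKO replicate 2 left out, 3 members were called, all of them among the 6. On a scale of log2(RPM + 1) the count was 1, and with the variance moderated with neither a trend nor the robust option 2.

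**Figure D1:**
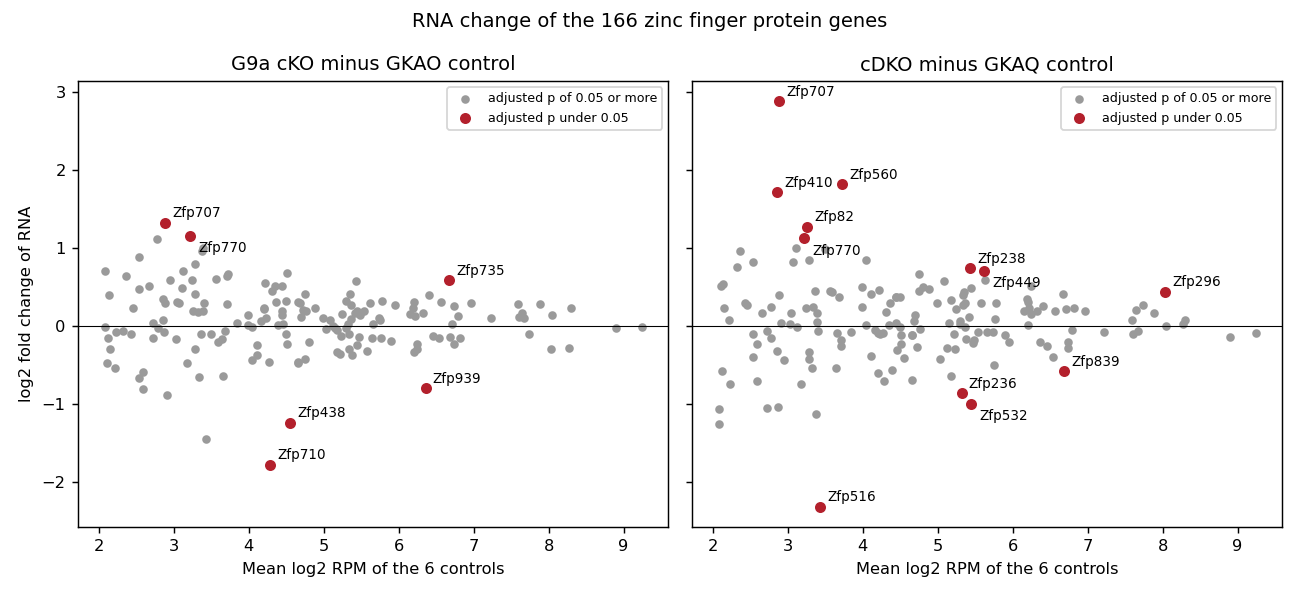
Each point is 1 of the 166 zinc finger protein genes, with the mean log2 RPM of the 6 controls on the horizontal axis and the log2 fold change of RNA on the vertical axis, for G9a cKO (left) and cDKO (right). Red points were called at an adjusted p under 0.05, 6 on the left and 12 on the right, and most grey points lie between −1 and 1, with a wider spread at low levels.

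Zfp710 (ENSMUSG00000048897, chr7:80024814-80092751, plus strand) fell most. It had 19.2, 22.0 and 15.8 RPM in the GKAO controls and 3.76, 5.46 and 8.00 RPM in G9a cKO. Every mutant library lay below every control. Its change on the log2 scale was −1.78 (SE 0.33, adjusted p = 3.31e-05). The call held without any one library and was lost on a scale of log2(RPM + 1) (adjusted p = 0.0693). The values rest on 9, 10 and 17 reads in the mutant, and the gene overlaps a locus on the other strand. In cDKO, Zfp710 had 10.2 and 14.8 RPM against 17.9 to 22.0, also below every control, but was not called (log2 fold change −0.71, adjusted p = 0.344).

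Zfp939 (ENSMUSG00000030424, chr7:39449502-39477706, plus strand) had 85.7, 80.1 and 81.5 RPM in the GKAO controls and 49.7, 49.7 and 42.8 RPM in G9a cKO. The groups lay far apart beside their spread, at 6.36 ± 0.05 and 5.56 ± 0.12 log2 RPM (SD, n = 3 each). The change came to −0.80 on the log2 scale (SE 0.17, adjusted p = 0.000324). The call held without any one library and on a scale of log2(RPM + 1), with an adjusted p of at most 0.0463. In cDKO the gene had 76.3 and 65.2 RPM against 77.1 to 87.7, and was not called (log2 fold change −0.21, adjusted p = 0.565). Zfp438, on chromosome 18, had 28.1, 19.9 and 17.6 RPM in the controls and 10.9, 6.01 and 11.3 RPM in G9a cKO. It fell by 1.25 on the log2 scale (SE 0.29, adjusted p = 0.00273), with no overlap of the groups, but the call was lost without G9a cKO replicate 2 (adjusted p = 0.128) or without GKAO control replicate 1 (0.0739).

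Among the 3 members called higher, Zfp735 (ENSMUSG00000060630, chr11:73688414-73713798, plus strand) had the most reads. It rose from 85.7, 93.2 and 114.9 RPM to 165, 122 and 153 RPM. The lowest mutant library lay just above the highest control. Its log2 change was 0.58 (SE 0.13, adjusted p = 0.00179), and without G9a cKO replicate 1 the adjusted p was 0.0729. Zfp707 (ENSMUSG00000034429, chr15:75969123-75975749, plus strand) rose from 12.3, 11 and 7.03 RPM to 19.2, 28.4 and 27.3 RPM (log2 fold change 1.32, SE 0.32, adjusted p = 0.00442). Without GKAO control replicate 3, G9a cKO replicate 2 or G9a cKO replicate 3 its adjusted p was 0.0919, 0.0792 and 0.0529. Zfp770 (ENSMUSG00000040321, chr2:114193319-114201484, minus strand) rose from 5.48, 5.24 and 8.79 RPM to 15, 13.1 and 14.1 RPM (log2 fold change 1.15, SE 0.33, adjusted p = 0.0333). Its controls had 8 to 15 reads. The call was lost in 5 of the fits that left out 1 library, without GKAO control replicate 1 or 2 or any one G9a cKO library (adjusted p from 0.0884 to 0.142). Against all 6 controls its log2 fold change was 0.60 (adjusted p = 0.409).

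The second comparison asked the same of the genotype that names both genes. Zfp707 and Zfp560 rose most in cDKO and Zfp516 and Zfp532 fell most, with log2 fold changes from −2.32 to 2.88. Of the 166 members 12 were called, 8 higher and 4 lower, which is 7.23%. Over all loci 6.34% were called (4.32% higher and 2.02% lower), and over the 8231 named loci at or above the same level 14.2% (7.31% and 6.88%). Members and those loci both had a median log2 fold change of 0.04, and that of the members was −0.06 after centring on detected loci. The log2 fold change was at least 1 in value for 12 members (7.23%) and 7.05% of those loci. An unadjusted p under 0.05 was found for 34 members (20.5%) and for 29.9% of those loci. The groups did not overlap for 67 members, or 41 higher and 26 lower, while 46.2% of the 8231 did not overlap. With members chosen on the GKAO controls alone, 12 of 165 were called. Without GKAQ control replicate 1 the count was 7. On a scale of log2(RPM + 1), and with the variance moderated with neither a trend nor the robust option, 5 were called.

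Zfp707 rose most. It had 3.14, 5.00 and 10.8 RPM in the GKAQ controls and 56.4 and 29.6 RPM in cDKO, from 5 to 22 reads and 99 and 50 reads. Both mutant libraries lay above every control, and neither group was tight. On the log2 scale the rise was 2.88 (SE 0.36, adjusted p = 3.81e-13), or 7.37-fold, and it ranged from 2.42 to 3.37 over the alternatives. The call held without any one GKAQ control and on a scale of log2(RPM + 1). Zfp560 (ENSMUSG00000045519, chr9:20345136-20385259, minus strand), in the cluster of chromosome 9, rose from 15.7, 10.0 and 11.3 RPM to 47.3 and 38.5 RPM. The lower mutant library lay well above the highest control. Its rise was 1.82 on the log2 scale (SE 0.31, adjusted p = 1.04e-06), or 3.52-fold, and it ranged from 1.67 to 2.00 over the alternatives. The call held without any one GKAQ control and on a scale of log2(RPM + 1). In G9a cKO the same gene had 22.1, 25.1 and 22.1 RPM against 12.3, 16.2 and 15.2, again with no overlap, but was not called (log2 fold change 0.67, adjusted p = 0.23).

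Zfp410 (ENSMUSG00000042472, chr12:84316840-84343830, plus strand), whose product is known as an activator of Chd4, had 1.89, 10.8 and 4.93 RPM in the GKAQ controls and 17.1 and 13.6 RPM in cDKO. The controls spread over 3 to 26 reads. The estimated rise was 1.71 on the log2 scale (SE 0.42, adjusted p = 0.00198), and it moved to 1.06 (adjusted p = 0.137) without GKAQ control replicate 1, the library with 3 reads, and to 1.55 (adjusted p = 0.078) without cDKO replicate 1. In the GKAO series all 6 libraries had 7.62 to 13.7 RPM. Zfp82 (ENSMUSG00000058447, chr7:30056037-30072935, minus strand), in a cluster of chromosome 7, had 7.54, 7.92 and 12.3 RPM in controls and 29.6 and 16 RPM in cDKO (log2 fold change 1.27, SE 0.39, adjusted p = 0.0213). Its call was lost without cDKO replicate 1 (adjusted p = 0.599), GKAQ control replicate 1 (0.0918) or GKAQ control replicate 2 (0.0931). Zfp770 rose from 15.1, 11.7 and 14.3 RPM to 29.6 RPM in both cDKO libraries (log2 fold change 1.12, SE 0.37, adjusted p = 0.0416). It lost its call in each fit without 1 of its 5 libraries (adjusted p from 0.0663 to 0.215) and after centring on detected loci (0.0749).

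The other 3 members called higher in cDKO started from higher levels. Zfp238, also known as Zbtb18, encodes a BTB domain repressor of neural development. It had 45.3, 44.2 and 50.8 RPM in controls and 69.5 and 87.7 RPM in cDKO (log2 fold change 0.74, SE 0.21, adjusted p = 0.0091). Zfp449 had 42.7, 46.7 and 46.3 RPM and 83.1 and 65.2 RPM (log2 fold change 0.70, SE 0.20, adjusted p = 0.0114). Zfp296, known from work on reprogramming to pluripotency, had 195, 198 and 212 RPM and 325 and 228 RPM (log2 fold change 0.44, SE 0.11, adjusted p = 0.00226). No cDKO library of these genes overlapped the controls, but 1 of the pair carried much of each difference. Without cDKO replicate 1 the adjusted p was 0.312 for Zfp449 and 0.694 for Zfp296, and without cDKO replicate 2 it was 0.247 for Zfp238. Without GKAQ control replicate 1 that of Zfp449 was 0.0507. Against all 6 controls the log2 fold change of Zfp296 was 0.06 (adjusted p = 0.887).

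Of the 4 members that fell in cDKO, 3 lie on chromosome 18. Zfp516, whose product is known for activating brown fat genes, had 15.7, 5.00 and 16.3 RPM in controls and 3.99 and 1.19 RPM in cDKO, from 7 and 2 reads. Both lay below the lowest control. Its log2 fold change was −2.32 (SE 0.50, adjusted p = 0.000267), and −1.45 (adjusted p = 0.165) without cDKO replicate 2. Zfp532 had 45.3, 47.1 and 50.8 RPM in controls and 25.1 and 22.5 RPM in cDKO. Replicates were close in both groups, and the change was −1.004 on the log2 scale (SE 0.24, adjusted p = 0.00137). Over the alternatives it ranged from −1.10 to −0.87, and the call held without any one GKAQ control. With the title number as a replicate block, a fit resting on cDKO replicate 2 alone, it was lost. Zfp236 had 40.2, 65.4 and 37.0 RPM and 33.6 and 19.0 RPM (log2 fold change −0.87, SE 0.24, adjusted p = 0.00965). Without cDKO replicate 2 its adjusted p was 0.625, and without GKAQ control replicate 2, the library with 65.4 RPM, 0.269. On chromosome 12, Zfp839 (ENSMUSG00000021271, chr12:110850224-110873808, plus strand) had 128, 95 and 102 RPM and 67.2 and 76.5 RPM (log2 fold change −0.58, SE 0.16, adjusted p = 0.0109). Its call was lost without cDKO replicate 1 (adjusted p = 0.173) or GKAQ control replicate 1 (0.137).

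**Figure D2:**
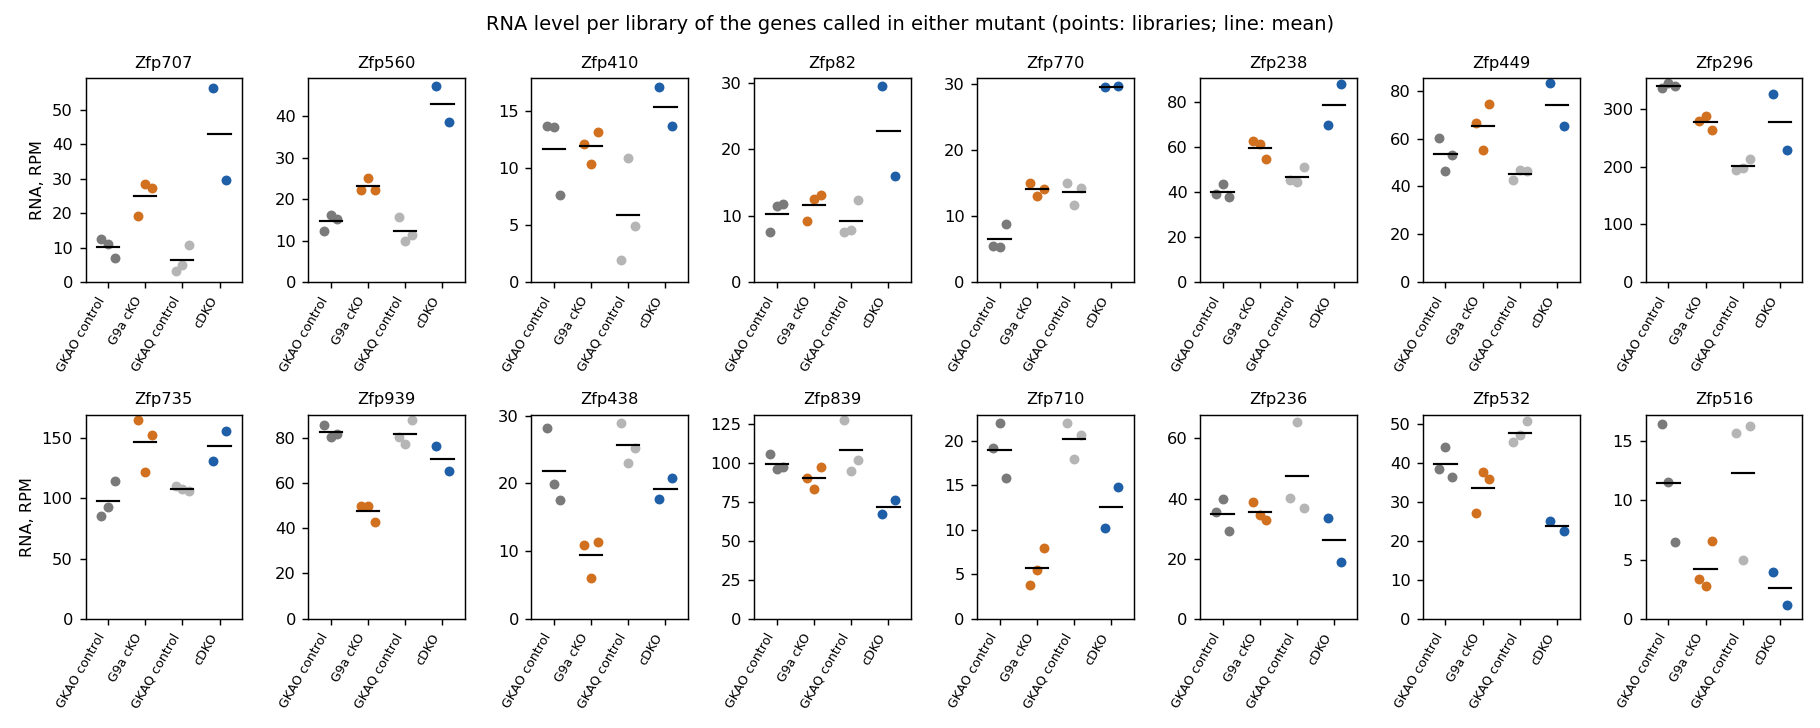
RNA level in RPM (vertical axis, from 0 and scaled per gene) of the 16 genes called in G9a cKO or cDKO, with 1 point per library in the 4 groups and a line at the group mean. Zfp560 and Zfp707 stand above all controls in both cDKO libraries, Zfp710 and Zfp939 stand below their controls in the 3 G9a cKO libraries, and Zfp296 and Zfp770 also differ between the control groups.

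The plot of levels by library shows that 16 members were called in at least 1 mutant and 2 of them, Zfp707 and Zfp770, in both. Chromosome 18 was singled out after the calls in cDKO were seen, and calls were not counted for any other chromosome. Of the 9 members on chromosome 18, 3 were called lower in cDKO and none higher, with a median log2 fold change of −0.42. Without cDKO replicate 2, Zfp516 (adjusted p = 0.165) and Zfp236 (0.625) were no longer among them. The 235 named loci of chromosome 18 at or above the same level had 23 called higher and 20 lower, with a median of 0.02. In clusters, limma called 0 of 58 members in G9a cKO, where 4 had an unadjusted p under 0.05, and 2 of 58, Zfp560 and Zfp82, in cDKO. Outside clusters 6 of 108 and 10 of 108 were called. Whether clustered members differ from the others was not tested.

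The third comparison asked whether the effect of cDKO differs from that of G9a cKO. It was called for 2 members (1.2%), 1 higher and 1 lower, beside 1.08% of all loci (0.685% higher and 0.397% lower) and 3.26% of the 8231 named loci (1.73% and 1.53%). Zfp296 had 278, 287 and 264 RPM in G9a cKO against 335, 345 and 339 in the GKAO controls, below every control (log2 fold change −0.30, adjusted p = 0.0867), while it rose in cDKO. The difference between the effects was 0.73 (SE 0.14, adjusted p = 0.00024), and 0.48 (adjusted p = 0.122) without cDKO replicate 1. The level of Zfp296 in cDKO, 325 and 228 RPM, lay on both sides of that in G9a cKO. The control groups lay apart, at 335 to 345 RPM in GKAO and 195 to 212 RPM in GKAQ. Zfp521, a regulator of blood and neural progenitors on chromosome 18, had 13.4, 20.8 and 23.1 RPM in G9a cKO against 9.60, 4.71 and 19.3 RPM, and 6.26 and 4.15 RPM in cDKO against 15.7, 7.92 and 11.3 RPM. Its log2 fold changes were 0.96 (adjusted p = 0.189) and −1.14 (adjusted p = 0.0645), neither called alone. Their difference was −2.09 (SE 0.54, adjusted p = 0.0158), and the call was lost without cDKO replicate 2 (adjusted p = 0.0918), GKAO control replicate 2 (0.113), G9a cKO replicate 2 (0.0628) or G9a cKO replicate 3 (0.0814). Without the library labelled G9a cKO replicate 2 it gave 1 member. Without GKAQ control replicate 1 this comparison gave 8 members, with the 2 above among them, and 14705 loci in all. Loci without reads stand at a fixed read value, so their difference depends on library depth alone. In the main fit, 118 symbols under the threshold and 6792 named loci with a control mean under 2 shared a median difference of 0.524. How many of the 14705 loci had no reads was not tested. The counts of that fit therefore cannot show how far the comparison depends on that library.

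The control groups were compared with each other, since both are labelled as controls. Between GKAQ and GKAO controls 9 members were called (5.42%), 6 higher and 3 lower in GKAQ, beside 3.87% of all loci (1.96% and 1.91%) and 13.0% of the 8231 named loci (6.57% and 6.45%). The control groups did not overlap for 41 members, beside 33.6% of the 8231. Zfp296 was lower in GKAQ controls (log2 fold change −0.75, adjusted p = 2.51e-12), and so were Zfp61, with 112 to 130 against 170 to 200 RPM (−0.66, adjusted p = 5.6e-06), and Zfp410 (−1.27, adjusted p = 0.0234). Zfp846 had 15 to 21.4 RPM in GKAQ controls and 4.80 to 7.62 RPM in GKAO controls (1.41, adjusted p = 0.00166). Zfp770 was higher by 1.11 (adjusted p = 0.0265), Zfp120 by 0.80 (adjusted p = 0.00562), Zfp472 by 0.79 (adjusted p = 0.0397), Zfp53 by 0.67 (adjusted p = 0.0343) and Zfp664 by 0.49 (adjusted p = 0.000369). The count was 5 without GKAO control replicate 2, GKAQ control replicate 1 or GKAQ control replicate 3. The calls of Zfp61, Zfp296, Zfp664 and Zfp846 held without any one library. Those of the others were lost without at least 1, with adjusted p of up to 0.692 for Zfp472, up to 0.227 for Zfp410, up to 0.153 for Zfp53, up to 0.139 for Zfp770 and up to 0.0605 for Zfp120. The difference of Zfp296 between control groups was larger in value than its change in either mutant, and that of Zfp770 nearly as large. What sets the control groups apart beyond the prefix is not given in the sources used here.

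By function, 4 lists of zinc finger proteins were drawn up from background knowledge, with earlier results of these data known. Of the zinc finger proteins known from retroelements and imprints, 6 were members and none was called in either mutant, with medians of 0.24 in G9a cKO and 0.31 in cDKO. Another 4 of this list lay under the threshold and are not in these medians. Of these, Zfp459, Zfp600 and Zfp809 were called higher in cDKO, from low reads given below, and Zfp600 also in G9a cKO. Zfp689 was called in neither mutant. Zfp445, Zfp568 and Zfp598 are named below for their known roles, after their values were seen. They include Zfp445, which helps to maintain imprints, with 31.4 to 51 RPM in the GKAO controls and 41.9 to 63.5 RPM in G9a cKO (log2 fold change 0.41, adjusted p = 0.23). In cDKO it had 58.6 and 52.8 RPM against 35.8 to 45.0 (0.44, adjusted p = 0.286). Zfp568, which represses a placental transcript of Igf2, had log2 fold changes of 0.32 and 0.06, and Zfp961, the list's highest in reads, of 0.16 and 0.19. Among 7 members of the list for pluripotency and the early embryo, Zfp710 was called lower in G9a cKO and Zfp296 higher in cDKO. Zfp13 and Zfp42 of this list lay under the threshold and were called in neither mutant. None of 5 members that act on RNA, ribosomes or the spindle was called, among them Zfp598, a ligase that marks collided ribosomes, with log2 fold changes of 0.11 and −0.06, and Zfp277, the highest in reads, with −0.11 and 0.27. Under the threshold in this list, Zfp622 was called higher in cDKO, and Zfp36, Zfp207 and Zfp326 were called in neither mutant. Of 14 transcription regulators and ubiquitin or SUMO factors, none was called in G9a cKO, and in cDKO Zfp410 was called higher and Zfp516 lower. Zfp292, Zfp367, Zfp395 and Zfp503, under the threshold, were called in neither mutant. Zfp91, a ubiquitin ligase and the highest of these, had log2 fold changes of 0.29 (adjusted p = 0.126) and 0.17 (adjusted p = 0.565).

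Of 25 genes of the KRAB co-repressor and H3K9 pathway that are no members, 21 were matched, and 2 were called in G9a cKO and 4 in cDKO. Fam208a, Setdb1, Suv39h1 and Suv39h2 were not matched, so these counts say nothing about them. As background, 1.79% of all loci passed the same cut for G9a cKO and 6.34% for cDKO. Among the 8231 named loci the shares were 4.48% and 14.2%. Whether this list differs from those shares was not tested. Trim28, the co-repressor itself, had 156 to 194 RPM in the GKAO controls and 179 to 212 RPM in G9a cKO (log2 fold change 0.18, adjusted p = 0.242). In cDKO it had 170 and 184 RPM against 176 to 208 (−0.08, adjusted p = 0.68). Chd4, the helicase that ZFP410 is known to activate, rose in G9a cKO (0.22, SE 0.06, adjusted p = 0.022) and was not called in cDKO (0.10, adjusted p = 0.565). Cbx3 was the other gene called in G9a cKO, with 5 to 11 reads against 0 to 2 per GKAO control. It was at least 2.03-fold higher against 3 reads in the shallowest control library (adjusted p = 0.0225). In the GKAQ controls Cbx3 had 3.77 to 5.83 RPM, which overlapped the 2.35 to 6.01 RPM of G9a cKO. Between the control groups Cbx3 was higher in GKAQ by 2.39 on the log2 scale (limma adjusted p = 0.002). In cDKO Daxx (0.65, adjusted p = 0.0116) and Morc2a (0.65, adjusted p = 0.0205) rose, and the maintenance methyltransferase Dnmt1 (−0.58, adjusted p = 3.57e-86) and the SETDB1 cofactor Atf7ip (−0.46, adjusted p = 0.0036) fell.

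The 118 symbols under the threshold were chosen for a low control level, which leaves more room for a rise than for a fall. Of them 2 were called in G9a cKO, Zfp536 and Zfp600, both higher, and 10 in cDKO, all higher, or 1.69% and 8.47%. Of 6792 named loci with a control mean under 2, the share called was 1.12% in G9a cKO, with 64 of 76 higher, and 5.57% in cDKO, with 359 of 378 higher. The genes named here were chosen after their values were seen. Zfp536 had 0 to 3 reads in each of the 6 controls, 31, 9 and 35 reads in G9a cKO and 29 and 11 reads in cDKO. Against 3 reads in the shallowest control library its level was at least 5.57-fold higher in G9a cKO (adjusted p = 1.13e-05) and at least 6.11-fold higher in cDKO (adjusted p = 3.55e-06). Zfp600 had 2 to 13 reads in the controls, 32, 21 and 21 with G9a cKO (log2 fold change 1.70, adjusted p = 0.00753) and 38 and 46 with cDKO (2.77, adjusted p = 1.15e-06). Zfp809, known for silencing murine leukaemia viruses, had 31 and 22 reads in cDKO, 4, 7 and 7 in G9a cKO and 3 to 9 in the controls (cDKO log2 fold change 2.55, SE 0.61, adjusted p = 0.00149). Zfp622 had 36 and 14 reads in cDKO against 4 to 6 in its controls (2.49, adjusted p = 0.00583). The others were Zfp677, Zfp719, Zfp688, Zfp595, Zfp459 and Zfp607, with at most 19 reads in any library.

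H3K9me2 was summed over the 10 kb windows that overlap each locus, a median of 3 windows per member, and given as log2 RPM per window. It is a readout the rule did not use. Values are shares of each library's reads, so a change of the total amount of H3K9me2 cannot be seen. In the controls the members resembled other genes, with library medians of 1.88 and 1.90 beside 1.86 and 1.83 for 8045 other named loci at or above the same RNA level. In G9a cKO the members' medians were 2.57 and 2.37 beside 1.91 and 1.97, and in cDKO 2.38 and 2.20 beside 2.09 and 2.09. Every mutant library thus had a higher median over the members than either control. The median log2 fold change of the members was 0.58 in G9a cKO, beside 0.01 over all 14942 named loci tested and 0.09 over the 8045. In cDKO it was 0.45, beside 0.15 and 0.25.

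**Figure D3:**
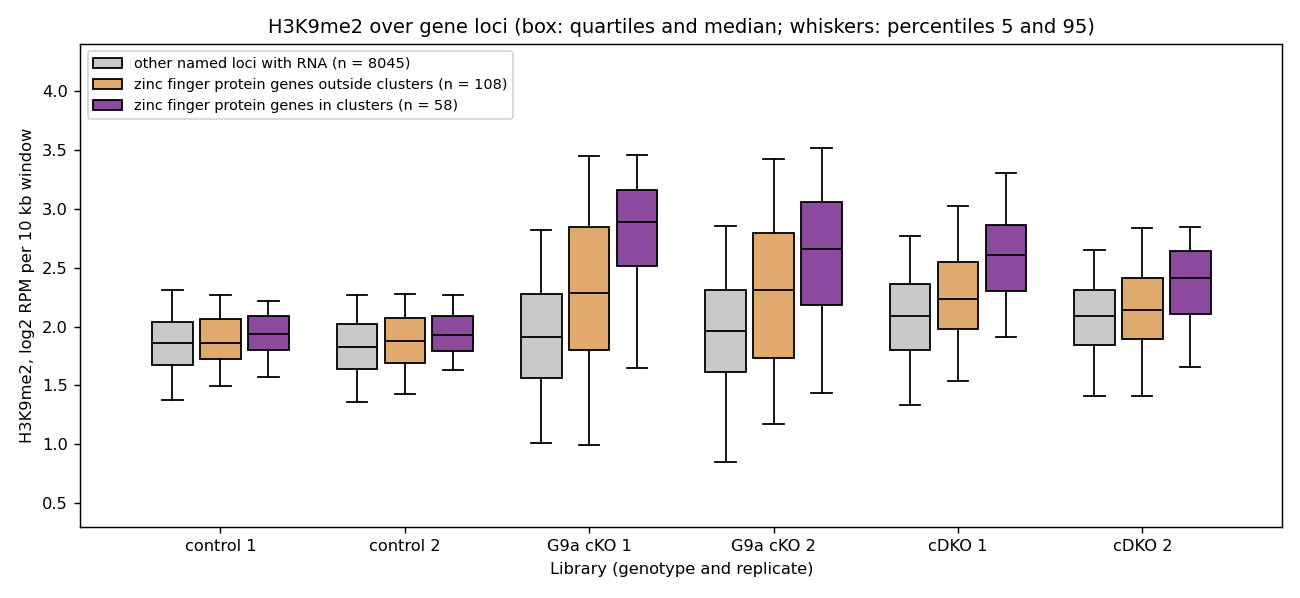
H3K9me2 in log2 RPM per 10 kb window (vertical axis) in the 6 libraries, for 8045 other named loci with RNA (grey), 108 zinc finger protein genes outside clusters (orange) and 58 in clusters (purple). Boxes give the quartiles and median over loci and whiskers the percentiles 5 and 95. The 3 boxes are level in both controls, and the purple box is the highest in the 4 mutant libraries, with the largest shift in G9a cKO.

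Values moved further in clusters than outside, a difference that was not tested. As the plot of H3K9me2 by library shows, members in clusters had medians of 2.89 and 2.66 in G9a cKO, 2.61 and 2.41 in cDKO, and 1.94 and 1.93 in controls. The median change of these 58 was 0.87 in G9a cKO and 0.56 in cDKO, beside 0.37 and 0.35 for members outside. Both mutant libraries lay above both controls for 104 of 166 members (62.7%) in G9a cKO, beside 31.9% of all named loci and 37.6% of the 8045. In cDKO they did so for 114 of 166 (68.7%), beside 41.8% and 53.2%. In clusters these numbers were 49 of 58 and 43 of 58. With limma on 2 libraries per group, 0 of 14942 loci (0.0%) passed an adjusted p under 0.05 in either mutant, and the lowest adjusted p was 0.0617 in G9a cKO and 0.165 in cDKO. An unadjusted p under 0.05 was found for 87 members (52.4%) in G9a cKO, beside 24.1% of all named loci and 21.3% of the 8045. In cDKO it was found for 59 (35.5%), beside 18.6% and 20.8%.

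Other settings did call members. With precision weights 92 members passed in G9a cKO, of which 89 were higher and 3 lower, beside 21.8% of all loci, and 67 in cDKO, all higher, beside 21.7%. Over the window of the start alone the medians were 0.15 and 0.23. The controls held 7048784 and 19128881 reads and the mutants 1109191 to 1881848, and the spread over loci was wider in the mutants. No input was used here. The part of depth and of input in the shift was not tested.

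Single members are named by their values. Zfp334 had the largest value in G9a cKO, a choice made after seeing it, with 3.75 and 3.66 log2 RPM per window there, 3.02 and 2.84 in cDKO and 1.64 and 1.87 in controls (log2 fold change 1.95 in G9a cKO, adjusted p = 0.0617). Zfp68 had 3.45 and 3.07, 2.58 and 2.41, and 1.69 and 1.44 in the same order (1.70, adjusted p = 0.0617). Both lay above the controls in all 4 mutant libraries. Zfp939, whose RNA fell in G9a cKO, had 3.78 and 3.44 there, 3.59 and 2.97 in cDKO and 2.11 and 2.23 in controls. Zfp707 and Zfp560, whose RNA rose in cDKO, were also above both controls in all 4, with Zfp707 at 2.81 and 3.49, 2.86 and 2.73, and 1.74 and 2.00, and Zfp560 at 2.81 and 2.57, 2.67 and 2.44, and 1.57 and 1.88. Zfp710 and Zfp770 overlapped the controls in G9a cKO, with log2 fold changes of −0.15 and −0.08. At the low end Zfp819 had the lowest value in both mutants, −1.65 in G9a cKO and −0.59 in cDKO, from 4 reads in each G9a cKO library.

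RNA and H3K9me2 were then set side by side. Across the 166 members, which share libraries and depth, the Pearson correlation of the RNA and H3K9me2 log2 fold changes was −0.11 in G9a cKO and 0.02 in cDKO, and the Spearman correlation −0.18 and 0.01. In G9a cKO 89 members had an H3K9me2 log2 fold change of at least 0.5. Of these, 1 was called lower in RNA (Zfp939) and 2 higher (Zfp707 and Zfp735), or 3.37%. Among all 1562 named loci with such a value and RNA at or above the same level, 4.67% were called, 44 lower and 29 higher. The median RNA log2 fold change was 0.08 for the 89 and 0.11 for the other 77. In cDKO 71 members had such a value, of which 0 were called lower and 4 higher, or 5.63%. Of 1982 named loci with such a value, 13.1% were called, 165 lower and 95 higher, and over all 8211 named loci compared the Pearson correlation was 0.01 in G9a cKO and −0.11 in cDKO. The members' RNA medians were 0.07 for the 71 and 0.02 for the other 95.

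**Figure D4:**
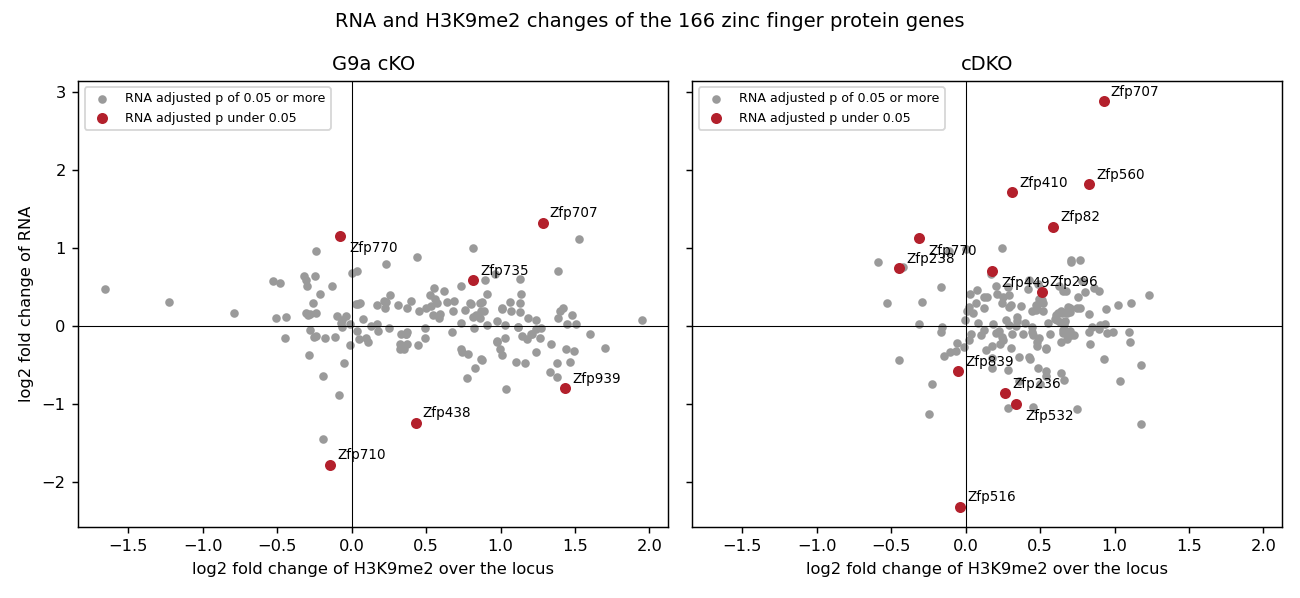
The log2 fold change of RNA (vertical axis) against that of H3K9me2 over the locus (horizontal axis) for the 166 zinc finger protein genes in G9a cKO (left) and cDKO (right), with genes called in RNA in red. Most points lie right of 0 on the horizontal axis and close to 0 on the vertical axis, and the called genes lie on both sides of both lines.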

How the data were processed

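RNA was measured in 11 libraries and H3K9me2 in 6. The tables deposited by the authors hold log2 RPM (reads per 1000000 reads of a library) per locus and per 10 kb window, which the values themselves show: above the lowest value, at least 99.995% of the values of each library are the log2 of a whole number of reads, within a tolerance of 0.01 read, and features without reads stand at 0.9 read. Trim Galore, HISAT2 2.1.0, Bowtie2 and the build GRCm38 are named without a role, per the submitters' processing notes. Counting, strand and the treatment of reads with several matches are not given in the sources used here. A row of the RNA table without an identifier (1) and 4 per-sample columns of the H3K9me2 table that match no sample were not used. Bisulphite, input and IgG libraries were not analysed here.

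Libraries were grouped by genotype and title prefix. limma 3.58.1 (R 4.3.3) was fitted to the log2 values of all 38540 loci with 1 mean per group over the 11 RNA libraries, with a variance trend and robust moderation. RNA standard errors followed that trend. Sumo2 and Chd3 had SDs of 0.42 and 0.22 in GKAO controls, yet the same SE of 0.22 in G9a cKO. Tests were two-sided and p-values were adjusted by Benjamini-Hochberg over all loci. For H3K9me2, reads of the windows overlapping each of 14942 named loci were recovered from the values, summed, and fitted in the same way. The RNA fit was also run on simulated reads. There every locus had the same spread beyond counting, so that run cannot show how the fit does at genes with wider spread. RNA libraries held 1458868 to 2399680 reads, and the median half-width of the confidence interval of a member's log2 fold change was 0.51 in G9a cKO and 0.57 in cDKO.

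Genes named are the called members, the 6 highest and 4 lowest in control level, the 4 just under the threshold, and called or highest members of the lists. Exceptions are marked in the text. The members and lists were chosen with earlier results of these data known. Alternatives covered scaling, the value of loci without reads, weights, filters, variance moderation, pooled controls, a replicate block, the rule itself and leaving out each library. Those on the rule itself reuse the main fit, so they change which members are counted and not the value of a member.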

Additional observations from a re-analysis of the deposited data

Results flagged for a closer look

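For 2 members the effect of cDKO differed from that of G9a cKO by limma's test of the difference, with Benjamini-Hochberg adjustment over all loci. For Zfp296 the difference was 0.73 on the log2 scale (adjusted p = 0.00024). Its RNA was lower than every GKAO control in 3 of 3 G9a cKO libraries. It was higher than every GKAQ control in 2 of 2 cDKO libraries, but both lay below every GKAO control. Between GKAQ and GKAO controls its log2 fold change ranged from −0.79 to −0.73 over the alternatives, about as large in value. With all controls pooled, its log2 fold change in cDKO was 0.06 (limma adjusted p = 0.887). For Zfp521 the difference was −2.09 on the log2 scale (adjusted p = 0.0158). Its 2 cDKO libraries lay below every GKAQ control, while the G9a cKO libraries overlapped the GKAO controls. The number in the title as a replicate block could not test these differences. Among the GKAQ titles only number 55 holds both groups. That fit therefore takes the cDKO effect from cDKO replicate 2 against GKAQ control replicate 2 alone. The call of Zfp296 was lost without cDKO replicate 1 (adjusted p = 0.122). That of Zfp521 was lost without cDKO replicate 2 (0.0918), GKAO control replicate 2 (0.113), G9a cKO replicate 2 (0.0628) or G9a cKO replicate 3 (0.0814).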

How the results depend on the processing

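The median RNA log2 fold change of the members in cDKO, 0.04, had no stable sign: it was −0.06 after centring on detected loci and −0.0015 without cDKO replicate 2. On a scale of log2(RPM + 1) the members called numbered 1 in G9a cKO, 5 in cDKO, 0 for the difference between the effects and 3 between control groups. With the variance moderated with neither a trend nor the robust option they numbered 2, 5, 0 and 0 in that order. Precision weights gave 1 member for the difference and 5 between control groups. All 6 controls as 1 group gave 10 members in G9a cKO. The cause of these shifts was not tested. The number in the title served as a replicate block, which gave 4 members in cDKO, 3 of them among the 12, and 1 for the difference, none of the 2 reported (adjusted p = 0.1 for Zfp296 and 0.12 for Zfp521). The labels do not say what the number marks. Deviations from group means of same-numbered G9a cKO and GKAO control libraries correlated at 0.074, 0.050, 0.011 and 0.113. Pairs of these groups with different numbers ran from −0.122 to 0.003. In cDKO the deviations of the 2 libraries mirror each other, so this check says nothing about GKAQ. Leaving out 1 library gave 3 to 7 members in G9a cKO, 7 to 13 in cDKO, 1 to 8 for the difference and 5 to 10 between control groups. For H3K9me2, precision weights gave 92 members in G9a cKO and 67 in cDKO. The median H3K9me2 log2 fold change was 0.15 and 0.23 over the window of the start. A minimum of 20 reads in every library gave 53 and 30 members and medians of 0.88 and 0.61, but all 166 members reach it in both controls and only 78 in the mutants too. It therefore selects high mutant values and supports nothing. The median was 0.32 in cDKO after centring on all loci, and 0.58 to 0.64 and 0.37 to 0.54 without 1 library. Depth limits members near the threshold, at under 20 reads per library, and H3K9me2 in the mutants, at a median of 21 reads per member in the shallowest library.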
